A study of Mus musculus with 9 samples.

Results

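The genes of the mitochondrial respiratory chain and of ATP synthase were examined in duodenal organoids that overexpressed HIF1 or HIF2. Members were taken by symbol: the Nduf, Uqcr and Atp5 families, Cox4 to Cox8, Sdha to Sdhd, and the protein-coding genes of mitochondrial DNA (mtDNA), without pseudogene symbols and without Ndufa4l2 and Cox4i2. The rule gave 103 of the 46517 genes in the count tables, 13 encoded by mtDNA and the rest by nuclear chromosomes. The rule uses symbols alone. The families also bring in Atp5s and Atp5sl, which match by symbol but are not subunits of ATP synthase, and Ndufa4 was counted with complex IV.

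RNA sequencing covered 9 organoid cultures grown from wild-type C57BL/6J duodenal crypts, 3 per group, in Matrigel with L-WRN conditioned medium. Every culture received an adenovirus, carrying GFP in the control (Ad-GFP), human HIF2 (Ad-hHIF2) or human HIF1 (Ad-hHIF1). Both human HIF alleles have their regulatory prolines replaced, so the proteins are not degraded in normal oxygen, and expression from the virus is transient. The paper states that its duodenal organoids were cultured at an oxygen level below that of air, which the control cultures shared. The labels number the cultures of each group 1, 3 and 4 but do not say what separates them, so the p-values measure only the spread between these cultures.

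The respiratory chain sits in the inner mitochondrial membrane. Complexes I and II take electrons from NADH and succinate and pass them through coenzyme Q, complex III and cytochrome c to complex IV, which reduces oxygen; ATP synthase, complex V, uses the proton gradient that complexes I, III and IV build. All complexes but complex II combine nuclear-encoded subunits with subunits encoded by mtDNA, and HIF1 is known for restraining oxygen use by mitochondria in low oxygen.

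Libraries held 21722618 to 51119041 expected counts. The members encoded by mtDNA took 0.599% to 1.06% of the counts of a library and the nuclear ones 0.2998% to 0.399%. Values are given as CPM, expected counts scaled to library size after TMM normalization. The mouse gene Epas1, which encodes HIF2 alpha, read 1.64, 1.47 and 2.20 CPM with Ad-GFP, 757, 604 and 654 CPM with Ad-hHIF2, and 1.69, 3.06 and 1.56 CPM with Ad-hHIF1; reads of the human transgene may be assigned to it. Hif1a read 197 to 251 CPM with Ad-GFP, 211 to 244 CPM with Ad-hHIF2 and 299 to 319 CPM with Ad-hHIF1, above both other groups without overlap. The adjusted p was 0.486 against Ad-GFP, and 0.0086 in the direct comparison, where Ad-hHIF2 was at -0.45. The 6 epithelial markers summed to 3210 to 3727 CPM over all libraries and 3 duodenal ones to 102 to 172 CPM, with 159 to 172 CPM in the Ad-hHIF2 cultures alone. Intestinal stem cell markers (4 genes) summed to at most 1.302 CPM, and Paneth, enteroendocrine and enterocyte markers to at most 1.002 CPM. Goblet markers summed to 5.21 to 8.39 CPM with Ad-GFP and 2.605 to 3.199 CPM with Ad-hHIF2, and fibroblast markers to at most 19.1 CPM, muscle markers to at most 7.53 CPM and endothelial markers to at most 2.98 CPM. Immune markers (4 genes) summed to 0.628 to 1.499 CPM with Ad-GFP, 0.0588 to 0.297 CPM with Ad-hHIF2 and 0.179 to 0.919 CPM with Ad-hHIF1, and 1 of them could be tested and was lower with Ad-hHIF2 at -3.92. The part of any of these markers in the results was not tested. In such bulk RNA, fewer cells of a type and less RNA per cell cannot be told apart. One library, Ad-hHIF1 replicate 3, stood apart, with 16.0% of its counts on the repeat-like genes Gm10800 and Gm26870 against 0.433% to 4.28% elsewhere, and with longer fragments. Another, Ad-GFP replicate 4, had 1.21% of its counts on the ribosomal RNAs of mtDNA against 3.19% to 4.61% elsewhere.

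Reads of several mtDNA genes could not be assigned to 1 place. A stretch of mouse chromosome 1 (GRCm38, minus strand) carries copies of 7 of the 13 genes, annotated as pseudogenes. Over the aligned bases the copies of mt-Co2 (Gm28661, 681 bases, chr1:24614885-24615565), mt-Co3 (Gm28437, 783 bases, chr1:24613189-24613971), mt-Atp6 (Gm10925, 678 bases), mt-Nd4l (Gm10222, 294 bases) and mt-Nd4 (Gm28439, 876 bases) have 0 substitutions. The copy of mt-Nd3 (Gm28438, 345 bases) has 1, T3C, and that of mt-Co1 (Gm29216, 483 bases) has 1, A1066T, where the mtDNA gene's base comes first and positions count from 1 at its first base. The sequences below are coding-strand stretches around these positions and at the start of mt-Co2, shown because a read from them cannot separate the mt-Co2 pair and separates the other pairs by a single base. Capitals mark the substituted base.
mt-Co1: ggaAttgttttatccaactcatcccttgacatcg
Gm29216: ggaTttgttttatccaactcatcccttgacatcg
mt-Nd3: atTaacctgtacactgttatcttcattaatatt
Gm28438: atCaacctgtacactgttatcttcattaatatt
mt-Co2: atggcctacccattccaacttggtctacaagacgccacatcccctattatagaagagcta
Gm28661: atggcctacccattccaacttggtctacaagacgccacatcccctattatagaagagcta

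The split of expected counts within some of these pairs changed from library to library, most plainly for mt-Co2. Counts of mt-Co1 and Gm29216 went up and down together, and Gm28439, the copy of mt-Nd4, had 0 counts in all 9 libraries. For mt-Co2, a core subunit of complex IV, they were 39956, 13346 and 22767 with Ad-GFP, 6.40, 35435 and 11900 with Ad-hHIF2, and 19035, 4.93 and 38464 with Ad-hHIF1. Its copy Gm28661 held 608, 32990 and 63.8, then 36602, 1672 and 17778, then 15803, 26670 and 189 in the same order. In every group at least 1 replicate had most of these reads on the mtDNA gene and another had most on the copy, and the sum of the pair varied far less. For mt-Co3 most reads stood on the copy Gm28437 in every library. The counts of each copy were added to those of its mtDNA gene for the values below, a choice made after seeing the data, with the unsummed counts given beside them where they can be read.

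**Figure D1:**
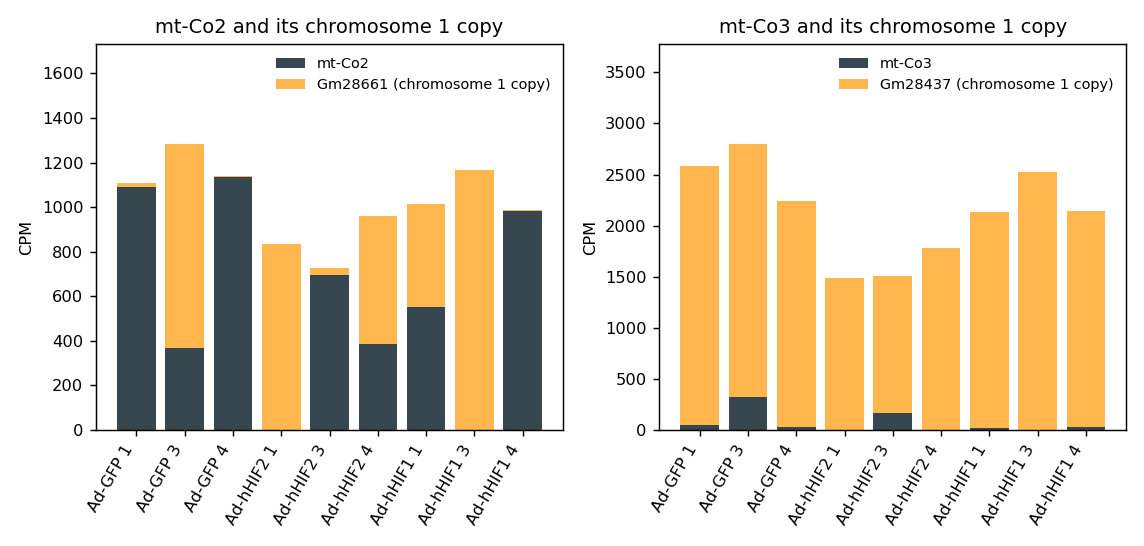
Stacked bars give CPM of mt-Co2 (left) and mt-Co3 (right, dark) and of their chromosome 1 copies (orange) in each of the 9 libraries. The boundary inside a bar moves between replicates of 1 group, while the summed heights for mt-Co2 stay between 728 and 1283 CPM.

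Taken as a sum, protein-coding transcripts of mtDNA were lower with Ad-hHIF2 than with Ad-GFP. Summed over the 13 genes and their copies they came to 16015, 17914 and 18400 CPM with Ad-GFP, 11603, 9604 and 12057 CPM with Ad-hHIF2, and 13521, 15603 and 13050 CPM with Ad-hHIF1. In every culture mt-Co1 with its copy made up most of the sum, so the sum mainly follows that gene. The Ad-hHIF2 cultures lay below all others, and the Ad-hHIF1 cultures lay below the Ad-GFP ones. This order depended on the scaling: as a share of the deposited TPM, the mtDNA members without copies took 0.108%, 0.120% and 0.119% with Ad-GFP and 0.141%, 0.0812% and 0.0854% with Ad-hHIF2, so Ad-hHIF2 replicate 1 was then the highest. That was not particular to these genes. The same library had the highest TPM share of nuclear members, 0.114% against 0.0620% to 0.0769% elsewhere. It also had the highest share of the ribosomal RNAs of mtDNA, 0.704% against 0.118% to 0.395%. The ribosomal RNAs of mtDNA, which are no members, did not pass the test. mt-Rnr2 read 30599, 33839 and 11382 CPM with Ad-GFP and 27533, 28817 and 29830 CPM with Ad-hHIF2 (0.19, adjusted p = 0.696), and mt-Rnr1 was at 0.38 (adjusted p = 0.506). The low Ad-GFP value of mt-Rnr2 is that of replicate 4, and the other Ad-GFP cultures lay above the Ad-hHIF2 ones. With copies summed, 7 of 13 genes fell with Ad-hHIF2 at an adjusted p below 0.05 and none rose, while 13.7% of all genes tested fell. In the counts as deposited, 4 of the 12 tested fell (mt-Co1, mt-Nd1, mt-Nd5 and mt-Nd6), and mt-Nd4l had too few counts for a test. The deposited counts gave 1 mtDNA gene higher and 10 lower without a count filter, 1 and 4 with library totals, and 3 and 2 on TPM with either pseudocount. With length offsets 2 of the 7 calls, mt-Co1 and mt-Co3, were left. When all 9 cultures were fitted at once, 2 mtDNA genes of the deposited counts were lower, without mt-Nd5 and mt-Nd6, and their median less that of all genes was -0.59. With the share of counts on receptor genes, a measure of background, as a covariate in that fit, 1 was lower, mt-Co1 at -0.56 (adjusted p = 0.0143), and the median difference was -0.26. Against Ad-hHIF1 the same covariate moved that difference from -0.36 to 0.14, and 6 of the 13 mtDNA genes went from below to above 0. The share itself was 0.0040% to 0.0069% with Ad-hHIF2 and 0.0078% to 0.0137% with Ad-GFP, without overlap. With Ad-hHIF1 it was 0.0061% to 0.0410%. A fit with this covariate therefore cannot fully tell it apart from the group.

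mt-Co1, the catalytic subunit of complex IV, was the most abundant member, at 5908 ± 520 CPM per kb in Ad-GFP without its copy (SD, n = 3). With the copy it read 10633, 11765 and 12977 CPM with Ad-GFP, 8043, 6153 and 7573 CPM with Ad-hHIF2, and 8545, 9855 and 8501 CPM with Ad-hHIF1. Every Ad-hHIF2 culture was below every other culture. The gene fell by 0.70 on the log2 scale with Ad-hHIF2 (SE 0.134, adjusted p = 0.00522, edgeR), and by 0.67 with an adjusted p of 0.00486 without the copy. With library totals alone the unsummed gene was at -0.39 and on TPM at -0.23, neither called. mt-Co3, the neighbouring core subunit, read 2582, 2798 and 2237 CPM with Ad-GFP, 1484, 1502 and 1778 CPM with Ad-hHIF2, and 2129, 2520 and 2148 CPM with Ad-hHIF1. It fell by 0.67 against Ad-GFP (SE 0.117, adjusted p = 0.00322) and by 0.51 against Ad-hHIF1 (adjusted p = 0.00865), and the Ad-hHIF2 values overlapped neither group. mt-Co2 with its copy read 1108, 1283 and 1140 CPM with Ad-GFP and 836, 728 and 959 CPM with Ad-hHIF2, a fall by 0.48 (SE 0.115, adjusted p = 0.0141).

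Complex I subunits encoded by mtDNA were less uniform. mt-Nd6, transcribed from the other strand of mtDNA than the rest and sharing 14 bases with mt-Nd5 whose reads need strand to be told apart, read 78.3, 92.4 and 128 CPM with Ad-GFP and 48.7, 61.6 and 70.3 CPM with Ad-hHIF2 (log2 fold change -0.72, SE 0.191, adjusted p = 0.0211). mt-Nd1 read 276, 364 and 339 CPM against 224, 182 and 274 CPM and fell by 0.52 (adjusted p = 0.0326). The groups of both genes did not overlap, though only narrowly for mt-Nd1. mt-Nd5 fell by 0.62 (adjusted p = 0.0446) and mt-Nd3 by 0.68 (adjusted p = 0.0437). When 1 culture was left out, mt-Nd3 with its copy passed only without Ad-GFP replicate 4. Its summed groups overlapped: mt-Nd3 itself read 0 CPM in replicate 4 of Ad-GFP and of Ad-hHIF2, and its copy 73.7 and 74.5 CPM. In the counts as deposited mt-Nd5 was at -0.35 (adjusted p = 0.0929) without Ad-GFP replicate 4, and its call was also lost without Ad-GFP replicate 3 (-0.70), Ad-hHIF2 replicate 1 (-0.55) or Ad-hHIF2 replicate 3 (-0.53). mt-Nd2 at -0.68 (adjusted p = 0.0876), mt-Nd4 at -0.32 (adjusted p = 0.273) and mt-Nd4l at -0.74 (adjusted p = 0.073) missed the threshold, with groups of mt-Nd2 and mt-Nd4 overlapping. So did mt-Cytb, the complex III subunit, at -0.50 (adjusted p = 0.17), and the ATP synthase subunits mt-Atp6 at -0.34 (adjusted p = 0.139) and mt-Atp8 at 0.27 (adjusted p = 0.758). Leaving out 1 culture in turn gave between 2 genes lower (without Ad-hHIF2 replicate 3) and 11 (without Ad-hHIF2 replicate 4), with 6 and 5 without Ad-GFP replicates 1 and 4 and 3 without Ad-GFP replicate 3 or Ad-hHIF2 replicate 1. mt-Co1 and mt-Co3 passed in each of these fits.

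**Figure D2:**
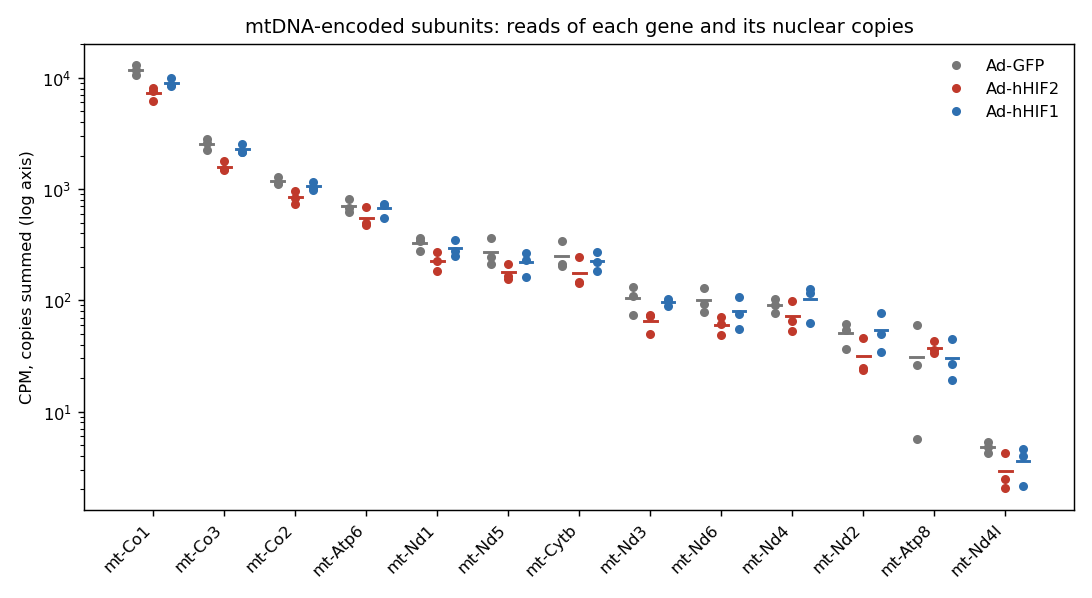
CPM on a log axis of the 13 mtDNA-encoded genes, each summed with its nuclear copies, by culture (points) with group means (bars). The Ad-hHIF2 points of mt-Co1 (6153 to 8043 CPM) and mt-Co3 (1484 to 1778 CPM) lie below all points of the other groups.

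Nuclear members changed little with Ad-hHIF2. Of the 98 members that passed the count filter, 17 fell and 2, Sdha and Ndufa1, rose; 13.6% of all genes tested fell and 15.9% rose. The members' shares were 17.3% lower, close to the background, and 2.04% higher, below it. The 86 nuclear members gave 13 lower and 2 higher, with a median log2 fold change of -0.08 against -0.01 over all genes tested. Changes were small, as 83 of the 98 lay within 0.5 of 0 on the log2 scale, and 1, Ndufaf6, passed both 0.05 and 2-fold in the lower direction, where 3.83% of all genes did. Groups did not overlap for 25 members below and 7 above, against 22.4% and 23.4% of all genes. The 5 members without a test were mt-Nd4l and the isoforms Cox6b2, Cox7b2, Cox8b and Cox8c.

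Differences over all genes moved with gene length, with a Spearman rho of 0.193 across genes between effective length and log2 fold change, which was 0.164 over nuclear members and 0.0379 over all members. Members are short transcripts, with a median effective length of 603 bases against 2249 for all genes tested, and 74 of the 103 are under 1000 bases. Over all genes tested, the median log2 fold change of Ad-hHIF2 against Ad-GFP went from -0.33 under 500 bases (818 genes) through -0.20 (500 to 1000 bases), -0.06 (1000 to 2000) and 0.04 (2000 to 4000) to 0.13 above 4000 bases. Nuclear members of the same classes had medians of -0.14 (31 genes), -0.17 (30), 0.02 (19) and 0.04 (6), with none above 4000 bases. In the shorter classes their medians were thus less negative than, or near to, those of other genes as short. Cytosolic ribosomal protein genes, which are short as well, gave 58 of 83 lower, against 13.6% of all genes, with a median of -0.45. That count was 32 with length offsets, 7 with library totals and 0 or 1 on TPM. Over all genes these fits called 13.1%, 5.53% and 1.31% or 1.40% lower. When the trend with length was fitted for each library and removed, 14 members were higher and 4 lower, against 15.3% and 13.1% of all genes. The lower ones were then mt-Co1, Ndufv2, Cox7b and Ndufaf6, and Sdha and Ndufa1 stayed among the higher ones. Scaling by library totals alone, or testing TPM, turned the members' median above 0, but these scalings also moved the median of all genes, to 0.24 and to 0.12 or 0.30.

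**Figure D3:**
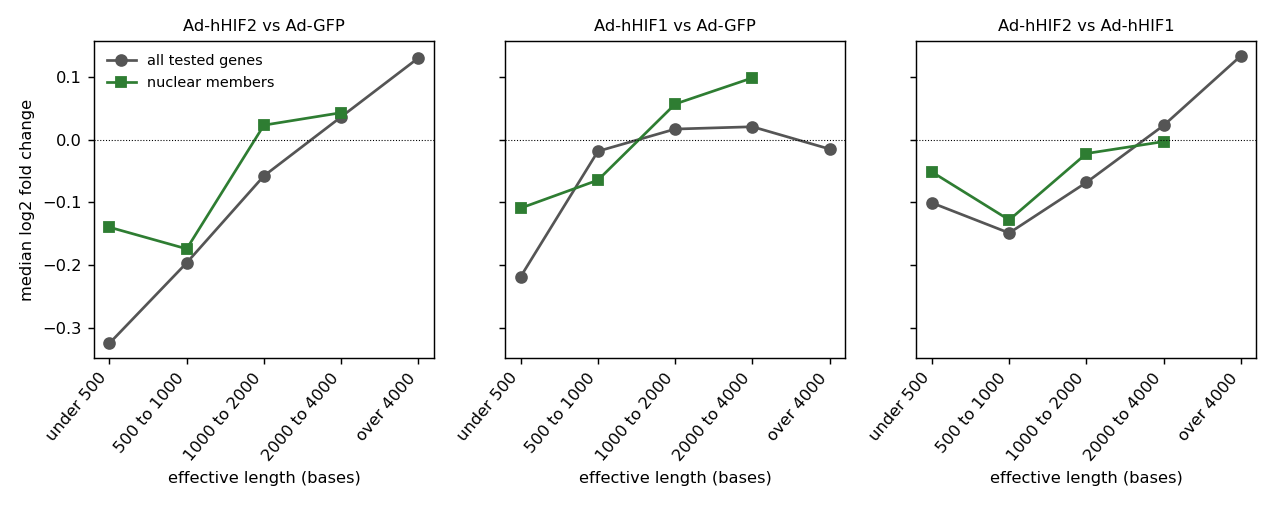
Median log2 fold change by class of effective length for all tested genes (circles) and nuclear members (squares) in the 3 comparisons. With Ad-hHIF2 against Ad-GFP all genes go from -0.33 in the shortest class to 0.13 in the longest, and the nuclear members stay between -0.17 and 0.04.

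**Figure D4:**
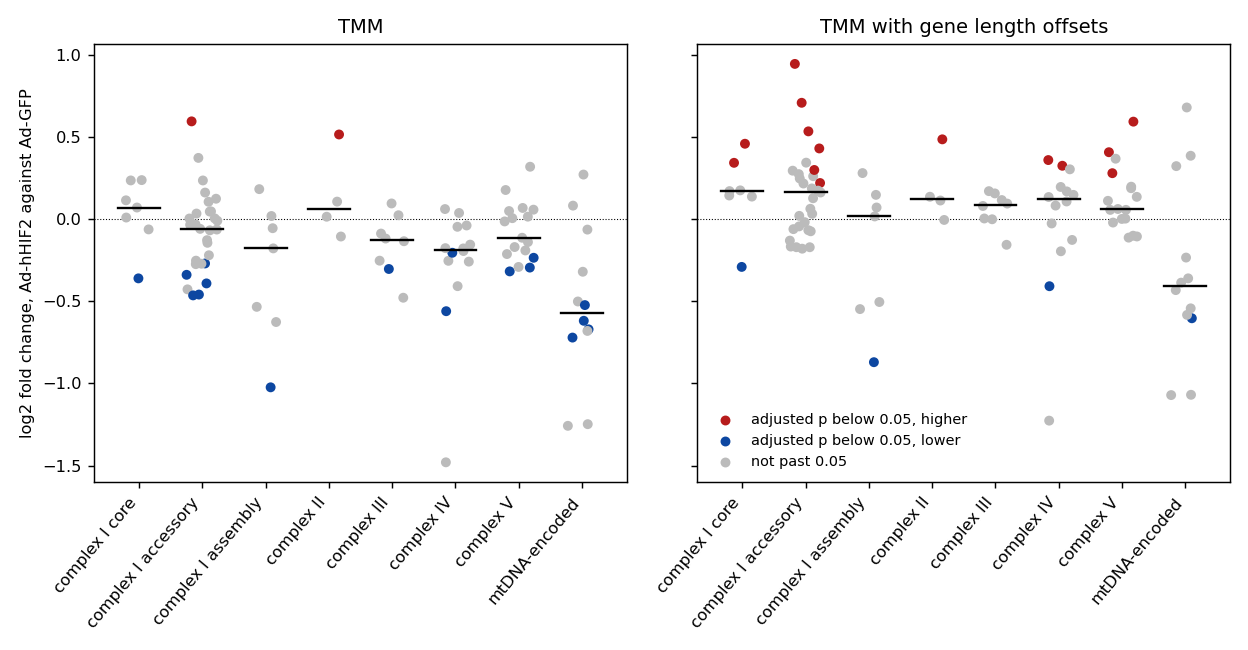
Log2 fold changes of Ad-hHIF2 against Ad-GFP for each tested member by role, with TMM scaling (left) and with gene length offsets added (right); bars are medians and colours mark an adjusted p below 0.05. Nuclear roles shift upward on the right, and the mtDNA-encoded median goes from -0.57 to -0.41.

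In complex I, which oxidises NADH, 1 of 7 nuclear core subunits, 5 of 29 accessory subunits and 1 of 7 assembly factors fell, and 1 accessory subunit rose. These shares are close to the 13.6% of all genes that fell. Ndufv2, an iron-sulfur core subunit (chr17:66078638-66101559), read 59.3, 55.5 and 53.5 CPM with Ad-GFP, 41.4, 44.3 and 44.95 CPM with Ad-hHIF2, and 54.9, 46.1 and 56.5 CPM with Ad-hHIF1. Ad-hHIF2 was below both groups, and the fall of 0.36 (SE 0.0731, adjusted p = 0.00697) was 0.29 (adjusted p = 0.013) with length offsets. The core subunits Ndufs1, at 0.11 (adjusted p = 0.422), and Ndufs7, at 0.24 (adjusted p = 0.158), did not pass, and with length offsets Ndufs7 was called higher at 0.46. The value of Ndufv2 was -0.11 with library totals and 0.07 to 0.08 on TPM, not called.

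Among the accessory subunits, Ndufa12 read 44.6, 44.9 and 45.9 CPM with Ad-GFP and 35.03, 30.3 and 32.9 CPM with Ad-hHIF2. It fell by 0.46 (SE 0.0719, adjusted p = 0.00198), and by 0.18 (adjusted p = 0.198) with length offsets. Its pseudogene Gm15920 took up to 254 counts in 1 library. Ndufv3, a small subunit of the NADH-binding module, read 68.1, 69.9 and 77.5 CPM against 55.4, 53.6 and 54.7 CPM and fell by 0.39 (SE 0.0748, adjusted p = 0.00526), and by 0.17 (adjusted p = 0.178) with length offsets. Both genes had separate groups, but neither call held once length was taken out. Ndufs6, which shares 30 exon bases with Mrpl36, read 18.9, 16.6 and 20.8 CPM against 15.2, 13.2 and 12.2 CPM (log2 fold change -0.46, adjusted p = 0.0179), was at -0.17 with length offsets, and lost its call without Ad-GFP replicate 1 (-0.45, adjusted p = 0.0533), Ad-hHIF2 replicate 3 (-0.44, adjusted p = 0.0667) or Ad-hHIF2 replicate 4 (-0.39, adjusted p = 0.0683). The other accessory calls were Ndufb5, which shares 530 exon bases with Mrpl47, and Ndufb10, both named after their values were seen.

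Ndufa1, an accessory subunit encoded on the X chromosome (chrX:37187588-37191163), rose. It read 6.55, 7.53 and 9.09 CPM with Ad-GFP, 11.1, 12.3 and 11.2 CPM with Ad-hHIF2, and 6.16, 11.6 and 7.54 CPM with Ad-hHIF1. All Ad-hHIF2 cultures were above the Ad-GFP ones and 1 Ad-hHIF1 culture, replicate 3, lay among them. The log2 fold change was 0.59 (SE 0.134, adjusted p = 0.0111), and 0.94 (adjusted p = 0.00151) with length offsets. In a fit of all 9 cultures it was 0.59 with an adjusted p of 0.0678.

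Of the assembly factors, which help build complex I without staying in it, Ndufaf6 (chr4:11051045-11076205) read 4.42, 4.35 and 3.75 CPM with Ad-GFP, 1.55, 2.69 and 1.87 CPM with Ad-hHIF2, and 3.63, 3.94 and 3.86 CPM with Ad-hHIF1. The Ad-hHIF2 cultures were separate from and below both other groups. It fell by 1.02 (SE 0.244, adjusted p = 0.014), and by 0.87 (adjusted p = 0.0214) with length offsets. Without Ad-hHIF2 replicate 4 the fall was 0.96 with an adjusted p of 0.0503, and on TPM the difference was -0.20 to -0.49 and not called. Ndufaf4 read 5.98, 6.01 and 4.30 CPM against 3.70, 3.23 and 4.40 CPM (-0.53, adjusted p = 0.0663) and Ndufaf5 was at -0.63 (adjusted p = 0.0744), each with overlapping groups. Ndufaf1, Ndufaf2 and Ndufaf3 lay between -0.18 and 0.18.

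**Figure D5:**
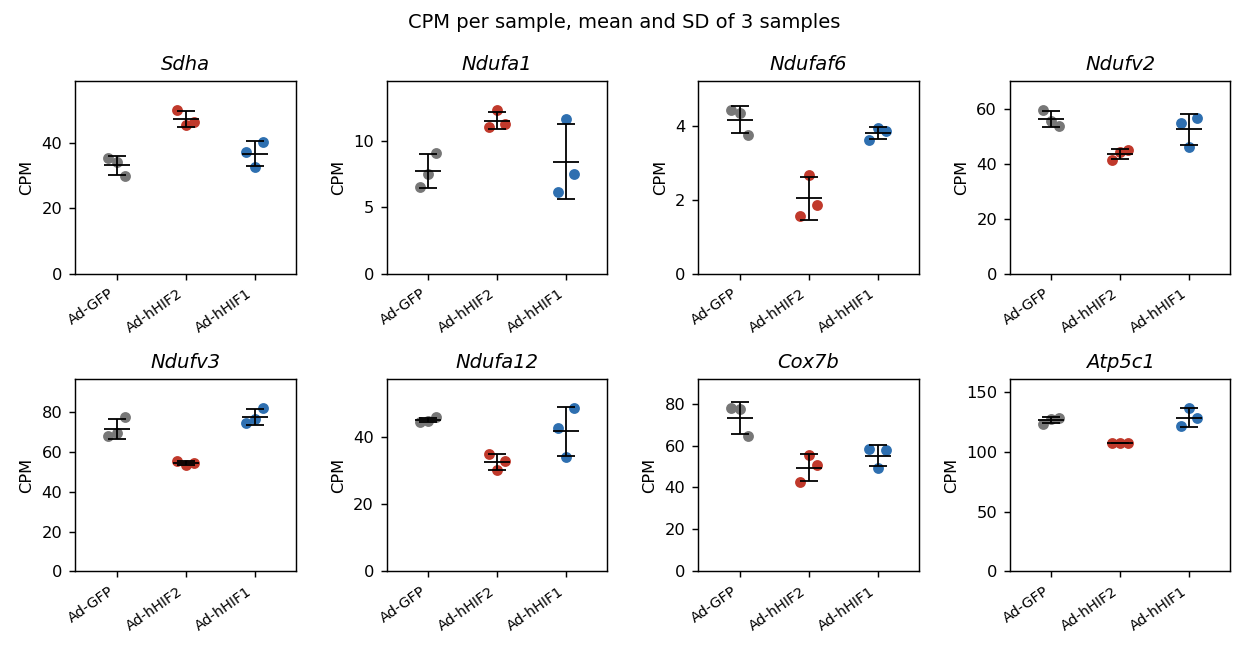
CPM of 8 nuclear members in each culture (points), with the mean and SD of 3 cultures. Sdha and Ndufa1 are higher with Ad-hHIF2 than with Ad-GFP (Sdha 45.5 to 50.04 against 29.8 to 35.5 CPM), and the other 6 are lower.

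Complex II, succinate dehydrogenase, is encoded by nuclear genes alone and also runs a step of the TCA cycle. Its flavoprotein Sdha (chr13:74322254-74350280) read 35.5, 34.3 and 29.8 CPM with Ad-GFP, 50.04, 45.5 and 46.5 CPM with Ad-hHIF2, and 37.2, 32.7 and 40.4 CPM with Ad-hHIF1. The Ad-hHIF2 values lay above both groups. Sdha rose by 0.51 on the log2 scale (SE 0.0812, adjusted p = 0.00208), and by 0.48 (adjusted p = 0.00215) with length offsets. At an adjusted p below 0.05 no other fit of the counts ended this call, but the change is under 2-fold, and the call was lost in both TPM fits, where the difference was 0.69 to 0.95 with an adjusted p of up to 0.0809. The other subunits did not follow it: the iron-sulfur protein Sdhb was at 0.01 (SE 0.0825) and the membrane anchors Sdhc and Sdhd were at 0.11 (SE 0.122) and -0.11 (SE 0.0977), all with overlapping groups. Sdha has no pseudogene copy by the criteria used and shares no exon base with another gene.

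The promoters of the members that rose are shown as RefSeq windows from 250 bases before to 50 after the start (GRCm38.p6), since HIF proteins bind the letters ACGTG or GCGTG. Capitals mark these letters or their reverse complements, searched on both strands. The first window is on the minus strand at chr13:74350191-74350490 and the second on the minus strand at chrX:37191189-37191488.
Sdha: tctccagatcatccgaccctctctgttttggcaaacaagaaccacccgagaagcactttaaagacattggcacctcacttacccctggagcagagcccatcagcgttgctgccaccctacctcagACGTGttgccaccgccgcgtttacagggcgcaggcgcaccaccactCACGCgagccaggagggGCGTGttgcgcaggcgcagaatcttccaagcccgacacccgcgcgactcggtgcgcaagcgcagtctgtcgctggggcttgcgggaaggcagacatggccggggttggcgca
Ndufa1: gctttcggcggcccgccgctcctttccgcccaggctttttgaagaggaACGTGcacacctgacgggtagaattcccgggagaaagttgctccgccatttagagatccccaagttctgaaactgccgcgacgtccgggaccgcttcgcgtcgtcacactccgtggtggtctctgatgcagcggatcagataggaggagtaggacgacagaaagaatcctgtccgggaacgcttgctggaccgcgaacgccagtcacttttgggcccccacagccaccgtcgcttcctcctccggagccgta
The Sdha window holds 3 matches, 1 of them ACGTG, and the Ndufa1 window holds 1. Members that fell hold such letters too: of 13 nuclear members called lower, 11 have a window and 7 of these hold at least 1 match, Ndufv3 with 4. ACGTG was in 17 of the 73 members with a window (23.3%) and in 20.7% of 18306 genes, and ACGTG or GCGTG in 64.4% and 49% of them, so the letters alone are common. The ETS core CGGAAG was in 39.7% of member windows against 20.8% of all, and the YY1 letters AAGATGGC in 11% against 3.18%.

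In complex III, 1 of 8 subunits fell, near the 13.6% of all genes. Uqcrb, which lies beside the coenzyme Q site, read 37.1, 37.8 and 38.6 CPM with Ad-GFP and 32.03, 28.8 and 30.8 CPM with Ad-hHIF2. The groups were separate and the fall was 0.30 (SE 0.0673, adjusted p = 0.0103), but with length offsets the difference was 0.00 (adjusted p = 0.994), and without Ad-hHIF2 replicate 3 it was -0.26 (adjusted p = 0.0567). Uqcrh, the hinge protein, was at -0.12, Uqcrq at -0.13, Uqcr10 at -0.25 and Uqcr11 at -0.48, none past the threshold.

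In complex IV, cytochrome c oxidase, 2 of 14 tested nuclear subunits fell, again near the 13.6% of all genes. Cox7b (chrX:106015700-106022450) read 77.8, 77.5 and 64.4 CPM with Ad-GFP, 42.5, 55.3 and 50.7 CPM with Ad-hHIF2, and 58.3, 49.4 and 57.8 CPM with Ad-hHIF1. Both HIF groups lay below Ad-GFP and overlapped each other. The fall was 0.56 with Ad-hHIF2 (SE 0.117, adjusted p = 0.00779), and 0.41 (adjusted p = 0.0136) with length offsets. With library totals it was at -0.32 and on TPM at -0.10 to -0.11, not called. Cox5b read 39.7, 38.6 and 38.8 CPM against 34.5, 33.6 and 33.1 CPM, a fall by 0.21 (adjusted p = 0.036) that was 0.08 in the other direction with length offsets and was lost when any culture but Ad-GFP replicate 4 was left out (adjusted p from 0.0773 to 0.126). Cox4i1, the most abundant nuclear member at 293 ± 39.1 CPM per kb in Ad-GFP and within its spread of Ndufa7 at 253 ± 37.1, was at -0.25 (adjusted p = 0.151).

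Isoforms of complex IV subunits known from other tissues were barely present. Cox8b and Cox8c, isoforms of heart and testis, had 0 counts in all 9 cultures, and Cox6b2 read at most 0.157 CPM. Cox6a2, a heart and muscle form, read 0.983, 0.914 and 0.649 CPM with Ad-GFP and 0.320, 0.490 and 0.0646 CPM with Ad-hHIF2 (adjusted p = 0.0934), and Cox7a1 read 0.999 to 2.30 CPM in all cultures. The general forms were far higher: Cox6a1 read 46.8 to 62.5 CPM, Cox8a 34.9 to 44.8 CPM and Cox6b1 51.0 to 65.4 CPM. None of these general forms was called with Ad-hHIF2.

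In complex V, ATP synthase, 3 of 17 members fell, Atp5c1, Atp5h and Atp5o, where 13.6% of all genes did. Atp5c1, the central stalk subunit, read 124, 127 and 128 CPM with Ad-GFP and 107 CPM in each Ad-hHIF2 culture, a fall by 0.24 (SE 0.0665, adjusted p = 0.0281). Atp5o, the stalk subunit that joins the catalytic head, read 71.7, 68.6 and 71.4 CPM against 54.5, 60.5 and 56.9 CPM (-0.30, adjusted p = 0.0161). Atp5h, of the same peripheral stalk, read 92.5, 84.9 and 101 CPM against 69.3, 75.5 and 77.4 CPM (-0.32, adjusted p = 0.028). All 3 had separate groups, and with length offsets they were at -0.11, -0.10 and -0.02, not called. Leaving out 1 culture ended the call of Atp5c1 in 5 of 6 cases (all but Ad-GFP replicate 4), with values of -0.25 to -0.21. Atp5h lost its call without any culture but Ad-GFP replicate 3 (-0.34 to -0.25), and Atp5o without Ad-GFP replicate 1 (-0.28), Ad-hHIF2 replicate 1 (-0.24) or Ad-hHIF2 replicate 4 (-0.28).

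Atp5j, another peripheral stalk subunit, read 18.7, 18.2 and 14.5 CPM with Ad-GFP and 19.2, 23.5 and 21.3 CPM with Ad-hHIF2. The Ad-hHIF2 cultures were above the Ad-GFP ones, narrowly. The difference of 0.32 (SE 0.117, adjusted p = 0.0734) missed the threshold, and with length offsets it was 0.59 and called, and the gene shares 175 exon bases with Gabpa.

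The 3 genes for the same proton-ring subunit, Atp5g1, Atp5g2 and Atp5g3, read 23.1 ± 2.24, 13.1 ± 1.63 and 30.2 ± 0.588 CPM with Ad-GFP (SD, n = 3) and 20.5 ± 1.62, 14.8 ± 0.9304 and 31.1 ± 2.44 CPM with Ad-hHIF2, with no call. Atp5g2 has an expressed copy, Gm10175, with 100% identity over 645 bases. With that copy added it read 70.4, 74.1 and 76.2 CPM with Ad-GFP and 60.5, 61.1 and 64.8 CPM with Ad-hHIF2, a fall by 0.24 (adjusted p = 0.0323) where the gene alone was at 0.18. Such sharing touched other nuclear members too: 24 of them had pseudogene copies of at least 95% identity, and 15 an expressed one.

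No member was called with Ad-hHIF1. Of 99 members tested against Ad-GFP, 0 passed an adjusted p of 0.05, as did 0% of all genes, with the smallest adjusted p over all genes at 0.0789. At an unadjusted p below 0.05 there were 11 lower, where the background was 4.53% of all genes, and 1 higher, where it was 4.06%. DESeq2 called 4 lower, where it called 0.499% of all genes lower. The members' median log2 fold change was -0.04, and groups did not overlap for 12 members below (9.06% of all genes) and 11 above (8.38%). Cox7b was at -0.41 (SE 0.103, adjusted p = 0.49), Uqcrh at -0.32 (SE 0.0772, adjusted p = 0.486) and mt-Co1 at -0.35 (SE 0.112, adjusted p = 0.509), each with the Ad-hHIF1 cultures below the Ad-GFP ones. Sdha was at 0.15 (SE 0.104) and Ndufa1 at 0.13 (SE 0.245). The comparisons of both HIFs with control use the same Ad-GFP cultures.

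Set directly against Ad-hHIF1 in a fit of all 9 cultures, Ad-hHIF2 gave 9 members lower and 1 higher of 99, while 12% of all genes tested were lower and 13.7% higher. Groups did not overlap for 19 members below, against 19.1% of all genes, and for 4 above, against 22.7%, and the 2-fold call was mt-Nd4l, where 3.7% of all genes were that much lower. Sdha was higher by 0.36 (adjusted p = 0.0173), but not called without Ad-hHIF2 replicate 1 (0.33), Ad-hHIF1 replicate 1 (0.35) or Ad-hHIF1 replicate 3 (0.27). Its call was also lost in both TPM fits and with the share of counts on receptor genes as a covariate. Ndufv3, at 74.5, 76.9 and 82.2 CPM with Ad-hHIF1, was lower by a log2 fold change of -0.51 (adjusted p = 0.000591), which was -0.36 (adjusted p = 0.00772) with length offsets, and it was called in every leave-one-out fit, but not with library totals (-0.33, adjusted p = 0.157) or on TPM (-0.29 to -0.27, adjusted p of 0.554 and 0.575). Ndufaf6 was at -0.90 (adjusted p = 0.0149), lost without Ad-hHIF2 replicate 1 (-0.72, adjusted p = 0.0602) or replicate 4 (-0.83, adjusted p = 0.0558). Both TPM fits and the covariate of receptor genes ended the Ndufaf6 call as well, and its smallest difference in any fit was -0.18. Atp5b, the catalytic subunit of ATP synthase, read 250, 249 and 265 CPM with Ad-hHIF1 and 202, 214 and 210 CPM with Ad-hHIF2, with no overlap (-0.29, adjusted p = 0.0173). Atp5c1 was at -0.26 (adjusted p = 0.0158). The calls of Atp5b and Atp5c1 were lost without Ad-hHIF2 replicate 1 (-0.26 for both) or replicate 4 (-0.28 and -0.255), and that of Atp5b also without Ad-hHIF1 replicate 4 (-0.25). Both were lost as well with length offsets (-0.18 and -0.15), library totals (-0.11 and -0.08), TPM (-0.03 to -0.02) and no count filter (-0.26 and -0.24). The covariate of receptor genes ended the call of Atp5c1 too. Ndufaf4, Ndufv2 and Ndufa12 were at -0.58, -0.27 and -0.35, and each lost its call in 4 or more fits that left out 1 culture. The remaining lower calls were Ndufab1, named after its values were seen, and mt-Nd4l, whose value rests on the split of reads with Gm10222: with the copy added it was at -0.31 (adjusted p = 0.549).

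Of 8 genes listed as transcriptional regulators of respiratory genes, 5 fell with Ad-hHIF2, none rose and 3 did not pass, against 13.6% of all genes lower and 15.9% higher, with a median of -0.49, and 5 also fell with length offsets. Myc, which drives mitochondrial biogenesis genes among many others, read 148, 143 and 147 CPM with Ad-GFP, 69.8, 56.7 and 69.3 CPM with Ad-hHIF2, and 132, 132 and 137 CPM with Ad-hHIF1, a fall by 1.16 (adjusted p = 5.32e-05). Pprc1, a coactivator of the PGC-1 family, read 36.0, 34.3 and 33.2 CPM with Ad-GFP, 21.8, 19.9 and 20.2 CPM with Ad-hHIF2, and 29.3, 32.5 and 29.4 CPM with Ad-hHIF1, a fall by 0.74 (adjusted p = 0.000149). The Ad-hHIF2 cultures were below both groups for each gene. The others that fell, named after their values were seen, were Ppargc1a (-1.42), Nrf1 (-0.25) and Ppargc1b (-1.49). With library totals alone 3 regulators were lower and the median was -0.23, and on TPM none was called and the median was 0.04 or -0.01. These scalings also moved the median of all genes, to 0.24 with library totals and to 0.12 or 0.30 on TPM. The regulators' median lay below that of all genes in each. Library totals called 5.53% of all genes lower, and TPM 1.31% or 1.40%.

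Other genes of the pathway mostly did not pass, and the shares of carriers and assembly factors that fell were near the 13.6% of all genes. Of 13 electron carriers and coenzyme Q genes, 2 fell: Cycs, cytochrome c, by 0.60 (adjusted p = 0.0038) and Coq2 by 0.44 (adjusted p = 0.0295). Of 34 assembly factors of complexes II to V, 6 fell. The strongest, Cox16, read 13.7, 14.3 and 14.6 CPM with Ad-GFP, 6.83, 6.999 and 8.402 CPM with Ad-hHIF2, and 11.7, 10.5 and 12.5 CPM with Ad-hHIF1, a fall by 0.94 (adjusted p = 0.000475), and Coa3 fell by 0.47 (adjusted p = 0.00387). Of 10 genes for mtDNA transcription and replication, 3 fell, among them Lrpprc, which stabilises mtDNA transcripts, by 0.34 (adjusted p = 0.00696) and the transcription factor Tfb2m by 0.44 (adjusted p = 0.0231). None of these 3 lists held a gene that rose, and with Ad-hHIF1 none of their genes was called. With library totals alone, the carriers and the mtDNA expression genes each gave 1 higher and 0 lower, and TPM gave no call in any of the 3. Library totals called 23.3% of all genes higher and 5.53% lower.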

How the data were processed

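Bulk RNA sequencing of 9 organoid cultures was used, 3 per group as labelled. The authors quantified reads with RSEM; the aligner, genome build, annotation, library kit and strandedness are not given in the sources used here. The expected counts were deposited by the authors without normalization, beside deposited TPM and FPKM values (abundances per length and library) and the authors' transcript lengths; the FPKM were not used. Of the expected counts, 85.7% were whole (within 0.005), and 39 members had a count that was not whole in some library.

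Expected counts were rounded to whole numbers, passed through filterByExpr, scaled by TMM and fitted with edgeR 4.0.16 (quasi-likelihood, R 4.3.3); p-values were adjusted over all genes by the Benjamini-Hochberg method. The 6 cultures of a HIF and Ad-GFP made 1 fit for each HIF, and all 9 cultures made the fit of Ad-hHIF2 against Ad-hHIF1; calls were made at an adjusted p below 0.05. EBSeq, the tool of the study, was not run. The fits were tested on simulated data, and no outcome of that test is given here. CPM use TMM factors over all 9 libraries. Length offsets remove a lowess trend (span 0.3) of each library with effective length. Copies are pseudogenes with blastn (2.17.0) identity of at least 95% over 100 bases and 50% of the copy; positions are from GENCODE M21. Alternatives were DESeq2 1.42.0, voom and TPM with a pseudocount of 1 or 0.1 in limma 3.58.1, other filters and scalings, a replicate block and leaving out each culture.

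Members named are the mtDNA genes, in each other role the 4 of smallest adjusted p with Ad-hHIF2 and the 2 of highest TPM, any 2-fold call and the isoform genes; exceptions are marked. Of the other lists, the 2 genes of smallest adjusted p are named. Members and lists were chosen with earlier results of these data known. Low members are limited by depth: Cox6a2 had 174 counts over all libraries. With 3 cultures a group an exact permutation test cannot go below 0.10, so single genes were tested only in the fits across all genes. One member is not reported by name here.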

Additional observations from a re-analysis of the deposited data

How the results depend on the processing

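The counts of called members, and of all genes called, depended on the scaling. Members called with Ad-hHIF2 against Ad-GFP (2 higher, 17 lower) became 6 higher and 25 lower without a count filter (9.76% and 7.93% of all genes), 8 higher and 5 lower with library totals (23.3% and 5.53%), 4 and 2 with either TPM pseudocount (5.43% and 1.31%, or 6.00% and 1.40%), 14 and 4 with length offsets (15.3% and 13.1%), 13 and 5 with copies summed and length offsets (15.3% and 13.2%), 1 and 15 in the fit of all 9 cultures (14.02% and 11.1%), 2 and 7 of 60 with members of shared reads left out (15.9% and 13.5%), 0 and 1 at 2-fold (2.90% and 3.83%), and 1 and 5 at an adjusted p below 0.01 (8.97% and 6.39%). Leaving out a culture gave 2 higher (11.1% to 16.3%) and 8 to 19 lower (8.42% to 12.7%): 10, 11 and 8 without Ad-GFP replicates 1 and 3 and Ad-hHIF2 replicate 1. The members' median less that of all genes was -0.10, and 0.047 without a filter, 0.13 on log2(TPM + 1), 0.10 with length offsets and 0.066 with copies summed too; it was -0.033 without Ad-hHIF2 replicate 1, -0.067 without Ad-GFP replicate 3 and -0.16 without Ad-GFP replicate 4. Against Ad-hHIF1 (1 higher, 9 lower) the counts were 6 and 14 without a filter (7.53% and 6.73%), 2 and 2 with library totals (13.5% and 5.17%), 2 and 10 with voom (14.7% and 11.02%), 0 and 1 on either TPM (2.02% and 0.334%, or 2.45% and 0.508%), 9 and 4 with length offsets (12.4% and 12.2%), alone or with copies summed, 1 and 3 without shared reads (13.8% and 12.02%), 1 and 5 with the share of counts on receptor genes as covariate (7.97% and 7.32%), 0 and 1 at 2-fold (2.42% and 3.70%) and 0 and 1 at 0.01 (7.99% and 5.85%). Leaving out a culture gave 0 to 1 higher (9.02% to 13.8%) and 3 to 9 lower (6.75% to 12.8%; 3 without Ad-hHIF2 replicate 1, 4 without replicate 4), and the median difference (-0.080) was 0.064 on log2(TPM + 1), 0.056 with length offsets, -0.0091 and -0.13 without Ad-hHIF2 replicates 1 and 3, and -0.015 without Ad-hHIF1 replicate 4. With Ad-hHIF1, DESeq2 called 4 lower (0.499%) and no filter gave 2 higher and 4 lower (0.868% and 0.424%). The mtDNA genes with copies summed went from 7 lower to 2 with length offsets and to 2 to 11 without single cultures. The alternatives with copies summed were chosen after seeing the data.

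Of the members tested, 31 turned from below to above 0 with library totals with Ad-hHIF2 against Ad-GFP, 46 on either TPM and 29 with length offsets, and against Ad-hHIF1 these were 36, 41 or 38, and 30. Among named members called in either fit, signs turned with Ad-hHIF2 against Ad-GFP on log2(TPM + 1) and log2(TPM + 0.1) for Uqcrb (0.14, 0.14), Atp5o (0.16, 0.17), Ndufv2 (0.072, 0.078), Atp5c1 (0.18, 0.19; totals 0.021), Atp5h (0.11, 0.11), Cox5b (0.19, 0.20; totals 0.055; 0.082 with length offsets, 0.080 with the block too and 0.082 with copies summed too) and mt-Nd3 (0.77, 1.78), with length offsets for Ndufa6 (0.22, also with copies summed) and with copies summed for Atp5g2 (-0.24). Against Ad-hHIF1 they turned for Ndufv2 (0.0034 on log2(TPM + 1)) and mt-Co3 (-0.51 with copies summed, -0.37 with length offsets too). With Ad-hHIF2 against Ad-GFP the median of all genes moved too, from -0.01 to 0.24 with library totals and to 0.12 or 0.30 on TPM. The members' median less that of all genes was -0.105 in the main fit and -0.108 with library totals. The cause was not tested beyond these settings.

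With the replicate number as a block, 2 members were higher and 23 lower with Ad-hHIF2 against Ad-GFP (16.6% and 14.2% of all genes), 1 and 6 against Ad-hHIF1 (12.9% and 10.5%), and none with Ad-hHIF1. With length offsets as well, the block gave 14 higher and 9 lower (16.5% and 14.1%, median difference 0.095) and, against Ad-hHIF1, 8 and 3 (11.8% and 10.9%), and Ndufa7 turned to 0.28. Deviations of same-numbered cultures correlated at -0.25 to 0.23, not above 0.1 for every pair, and not every culture correlated best with its own number, so the numbers were not taken as a pairing.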

Other observations

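Mitochondrial ribosomal proteins, which translate the 13 mtDNA transcripts, gave 29 of 77 lower and none higher with Ad-hHIF2 against Ad-GFP, with a median log2 fold change of -0.21, where 13.6% of all genes were lower and 15.9% higher. Mrps18b was at -0.61 (adjusted p = 0.00103, edgeR) and Mrpl42 at -0.73 (adjusted p = 0.00151). With length offsets 19 were lower and 1 higher. With library totals alone 4 were lower and 2 higher, with a median of 0.03. On TPM none was called and the median was 0.14 or 0.21. The sign of the list's median was thus not kept, but these scalings also moved the median of all genes. That was 0.24 with library totals and 0.12 or 0.30 on TPM. The list's median lay below it with library totals and log2(TPM + 0.1), and just above it on log2(TPM + 1). Of 14 TCA cycle genes, Dld was higher (0.45, adjusted p = 0.0061) and Suclg2 lower (-0.47, adjusted p = 0.0193). With library totals alone 2 TCA cycle genes were higher and 0 lower, and on TPM none was called.

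Among 5 tested genes known to link HIF to mitochondria, 2 were lower and 2 higher with Ad-hHIF2, which was 1 and 2 with library totals and 0 and 1 on TPM; over all genes 13.6% were lower and 15.9% higher. Higd1a, a complex IV-associated protein of the hypoxia response, read 54.5, 54.7 and 46.9 CPM with Ad-GFP, 18.9, 20.3 and 20.7 CPM with Ad-hHIF2, and 64.2, 70.2 and 72.0 CPM with Ad-hHIF1 (log2 fold change -1.38 against Ad-GFP, adjusted p = 1.19e-05). Pdk1, which holds pyruvate out of the TCA cycle, read 117, 119 and 113 CPM, 72.5, 76.0 and 72.7 CPM, and 141, 140 and 144 CPM in the same order (-0.65, adjusted p = 0.000235). Both were lowest with Ad-hHIF2 and highest with Ad-hHIF1, without overlap between the groups, and neither was called with Ad-hHIF1 against Ad-GFP.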
